A study of Mus musculus with 2 samples.

Results

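In the postischemic mouse kidney, 222 of 17701 kept barcodes carried endothelial and mural genes together. They are called endothelial-mural barcodes here, and they numbered 105 of 8468 in the Cre- library and 117 of 9233 in the library labelled PHDTiEC. They were chosen by their counts of unique molecular identifiers (UMIs, each standing for 1 captured RNA molecule): at least 3 UMIs of Cdh5, Pecam1 and Cldn5 together, at least 3 of Rgs5 and Pdgfrb together, and 0 of the leukocyte gene Ptprc. Cdh5 encodes VE-cadherin, Pecam1 encodes CD31 and Cldn5 encodes a tight junction protein, all of endothelium, while Rgs5 and Pdgfrb mark pericytes and vascular smooth muscle. Levels of these genes are therefore a description of the choice and not a result. On GRCm38 (GENCODE vM21), Cdh5 lies at chr8:104101625-104144511, Pecam1 at chr11:106654217-106750628, Cldn5 at chr16:18776847-18778262 and Rgs5 at chr1:169655501-169695813, and the UMIs count transcripts of the whole gene by their 3′ ends. A UMI count belongs to a droplet barcode, which can hold more than 1 cell.

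The libraries came from injured kidneys of male mice of 8 to 10 weeks, taken on day 14 after the left renal artery had been clamped for 25 minutes. The mutant carried the Cdh5(PAC)-CreERT2 transgene and floxed alleles of Egln1, Egln2 and Egln3, which encode the prolyl hydroxylases PHD2, PHD1 and PHD3, and its control was a Cre- littermate whose label gives no further allele. Mice of either genotype received 4 injections of 3 mg tamoxifen after the ischemia, which activates the recombinase in cells that express Cdh5, that is, in endothelium. Each genotype has 1 library, and no label says that animals were pooled, so no difference between the genotypes has a replicate check, and no p-value or standard error was computed. All intervals below are exact 95% intervals, and the limit given beside a count of 0 is instead 3 counts of the total. Both cover counting error only.

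Endothelial cells line the vessels, and mural cells, which are pericytes on capillaries and smooth muscle on arterioles, lie directly on them within a shared basement membrane. In the afferent arteriole some mural cells make renin. In endothelial-to-mesenchymal transition (EndMT), endothelial cells are described as gaining smooth muscle and matrix genes under transcription factors such as SNAI1 and TWIST1. The study named 1 endothelial cluster for mesenchymal markers, so the question here is what the barcodes with both kinds of gene hold. The prolyl hydroxylases PHD1 to PHD3 mark the hypoxia-inducible factors (HIF) for degradation, and HIF drives glycolysis and the genes that follow.

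The genes whose levels set the library labelled PHDTiEC apart within the endothelial-mural barcodes included Slc16a3, the lactate exporter MCT4, Ankrd37, Bnip3, a mitophagy receptor, and Egln3, the HIF-induced PHD3 itself. The 250 bases before a RefSeq transcript start of each, on GRCm38.p6, are printed because HIF binds the core ACGTG or GCGTG. In GENCODE vM21, Slc16a3 spans chr11:120948480-120960868 and Ankrd37 chr8:45996902-46005707. By that annotation their windows lie inside the gene, and the Bnip3 window overlaps the edge of its gene. Capitals mark every match to ACGTG or GCGTG on either strand (read as CACGT or CACGC on the other one, with overlapping matches joined).
Slc16a3, chr11:120948817-120949066, plus strand: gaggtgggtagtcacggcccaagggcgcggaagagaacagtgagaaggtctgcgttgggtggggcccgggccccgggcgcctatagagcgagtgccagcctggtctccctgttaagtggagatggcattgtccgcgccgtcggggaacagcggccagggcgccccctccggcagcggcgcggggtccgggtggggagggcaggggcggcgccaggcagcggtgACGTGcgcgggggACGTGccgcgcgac
Ankrd37, chr8:45999851-46000100, minus strand: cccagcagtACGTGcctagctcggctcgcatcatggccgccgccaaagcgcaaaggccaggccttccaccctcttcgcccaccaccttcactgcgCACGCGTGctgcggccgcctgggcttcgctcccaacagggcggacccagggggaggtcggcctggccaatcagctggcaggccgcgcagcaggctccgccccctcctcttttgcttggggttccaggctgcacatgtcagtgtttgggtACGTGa
Bnip3, chr7:138909507-138909756, minus strand: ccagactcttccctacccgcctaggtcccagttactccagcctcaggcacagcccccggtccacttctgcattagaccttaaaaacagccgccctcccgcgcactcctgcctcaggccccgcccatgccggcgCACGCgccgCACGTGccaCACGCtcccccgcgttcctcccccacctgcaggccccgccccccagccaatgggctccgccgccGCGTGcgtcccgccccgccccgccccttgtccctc
Egln3, chr12:54203875-54204124, minus strand: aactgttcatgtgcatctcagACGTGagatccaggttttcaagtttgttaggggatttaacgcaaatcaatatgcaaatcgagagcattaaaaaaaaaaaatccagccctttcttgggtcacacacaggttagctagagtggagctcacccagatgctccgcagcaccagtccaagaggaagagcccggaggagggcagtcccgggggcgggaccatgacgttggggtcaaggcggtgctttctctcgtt
The Slc16a3 window held 2 matches, Ankrd37 held 4, Bnip3 held 5 and Egln3 held 1, where CACGTG counts on both strands. Of 32851 promoters of the same length, 38.6% held at least 1 match and 16.7% at least 2, so a match is common and is a description of the letters only. Ndufa4l2 and Cox4i2 were looked up as well.

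Among endothelial barcodes without Ptprc, the endothelial-mural ones made up 105 of 349 (30.1%, 25.3 to 35.2) in Cre- and 117 of 488 (24.0%, 20.3 to 28.0) in the library labelled PHDTiEC. Seen from the mural side they were 105 of 374 (28.1%, 23.6 to 32.9) and 117 of 492 (23.8%, 20.1 to 27.8). The intervals of the 2 libraries overlapped in both views. The references below are the endothelial-only barcodes with 0 UMIs of Rgs5 and Pdgfrb (213 and 330) and the mural-only barcodes with 0 UMIs of the endothelial sum (259 and 358). Barcodes with 1 to 2 UMIs of the other sum belong to neither. No kept endothelial-mural barcode sequence occurred in the other library, although 27 kept barcode sequences occurred in both.

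Few barcodes lay close to the limits of the choice. Of the endothelial-mural barcodes, 2 in Cre- and 3 in the library labelled PHDTiEC had a mural sum of exactly 3 UMIs, and just outside it 31 (8.88%) and 41 (8.40%) of the endothelial barcodes had a sum of 1 to 2. An endothelial sum of exactly 3 was found on 0 and 4 of them, against 10 and 17 mural barcodes with a sum of 1 to 2. Both sums reached 10 UMIs on 79 and 89 barcodes. The mural sum had a median of 27 UMIs (quartiles 14 and 44) in Cre- and 28 (15 and 54) in the library labelled PHDTiEC, and the endothelial sum a median of 29 in either library. Rgs5 gave most of the mural sum, with a median of 25 and 27 UMIs, whereas Pdgfrb, the receptor through which endothelial PDGF-B recruits mural cells, gave 2 and 1. Both mural genes were seen on 82 and 81 barcodes, Rgs5 without Pdgfrb on 21 and 31, and Pdgfrb without Rgs5 on 2 and 5. Of barcodes that met both sums, 22 of 127 and 21 of 138 were left out because they carried Ptprc.

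Genes that the choice did not use were read next. A mural panel of 20 genes (among them Acta2, Myh11, Tagln, Cspg4 and Ednra) and an endothelial panel of 17 genes (among them Nos3, Kdr, Flt1, Tek and Erg) were taken from the marker lists after their levels had been seen, as the genes whose level in the other reference was under 10% of that in their own. At least 10 UMIs of both panels were found on 98 of 105 and 111 of 117 endothelial-mural barcodes. Since the panel genes were picked for being low in the other reference, the references carry few of the other panel by construction, and the panels are compared below only with their own reference. The median of the mural panel was 124 and 161 UMIs on endothelial-mural barcodes, against 96 and 90 on mural-only ones. The median of the endothelial panel was 97 in either library, against 46 and 49.5 on endothelial-only barcodes and 102 and 114 on those with at least 10000 UMIs. Nearly all endothelial-mural barcodes thus held many molecules of both panels, and the share of the mural panel in their sum spread widely, from 29.2% to 77.6% between the quartiles in Cre- (median 54.6%) and from 42.0% to 76.0% in the library labelled PHDTiEC (median 63.6%).

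**Figure D1:**
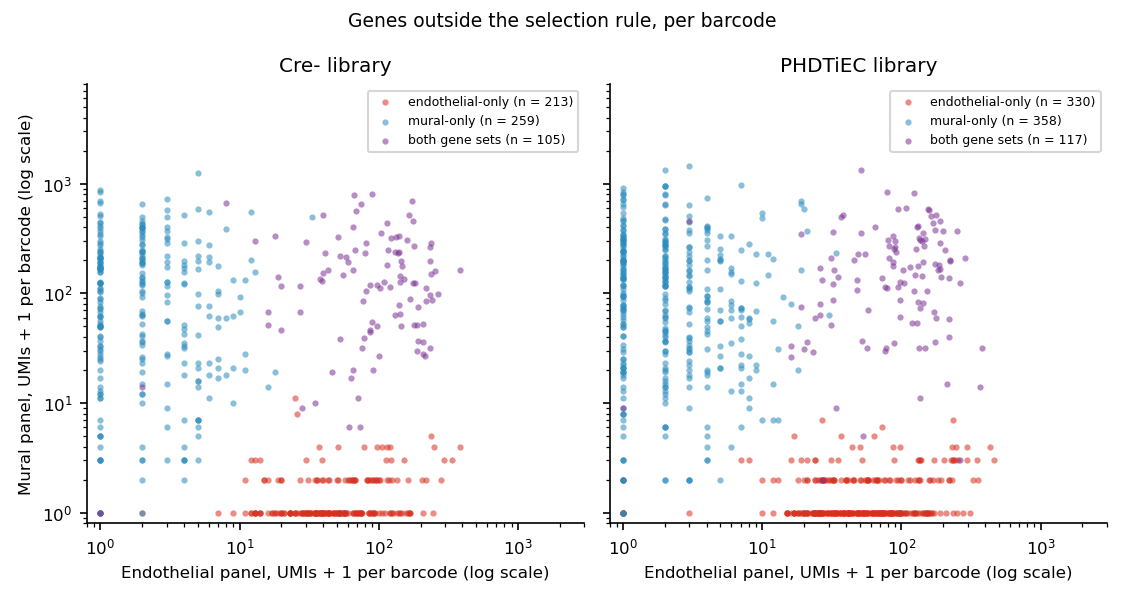
UMIs of the mural panel (y axis) against UMIs of the endothelial panel (x axis), both plus 1 on log scales, for every barcode of the 3 classes, with the Cre- library on the left and the library labelled PHDTiEC on the right. The endothelial-mural barcodes (both gene sets, purple) lie mostly at the upper right, away from both axes, with 98 of 105 and 111 of 117 of them at 10 UMIs or more of both panels.

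The endothelial-mural barcodes were deep. Their median was 24089 UMIs and 5566 genes in Cre- and 21841 UMIs and 5201 genes in the library labelled PHDTiEC. Endothelial-only barcodes had medians of 5934 and 6328 UMIs and mural-only ones 9805 and 10797.5, so that the endothelial-mural median was 1.53 and 1.28 times the sum of the 2 reference medians. The number of genes expected when every barcode is thinned to 2000 UMIs was 1148 and 1161 on endothelial-mural barcodes. It was 1124 and 1138 on endothelial-only barcodes of at least 10000 UMIs, 1087 and 1087 on mural-only ones of that depth, and 927 and 939 on barcodes with at least 3 UMIs of Ptprc (leukocyte barcodes). The mitochondrial share had a median of 4.73% and 3.57% on endothelial-mural barcodes, 4.14% and 2.70% on endothelial-only and 5.80% and 3.04% on mural-only ones.

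The share of endothelial barcodes that also carried the mural sum was larger at each step of depth up to 50000 UMIs. In Cre- it was 0 of 20 from 500 to 2000 UMIs (which allows up to 15.0%), 2.60% from 2000 to 5000, 9.59% from 5000 to 10000, 37.6% from 10000 to 20000, 69.9% from 20000 to 50000 and 54.5% of 11 barcodes above that. In the library labelled PHDTiEC the same steps gave 0 of 24 (which allows up to 12.5%), 4.72%, 15.3%, 30.1%, 52.3% and 41.7% of 12 barcodes. Rgs5 and Pdgfrb are not genes of leukocytes, so leukocyte barcodes were read beside the endothelial ones. In leukocyte barcodes the mural sum reached 3 UMIs on 0.525% and 1.83% from 10000 to 20000 UMIs and on 4.43% and 4.26% from 20000 to 50000. At these depths the share on endothelial barcodes was far above that on leukocyte barcodes, although both shares were larger on deeper barcodes. Whether leukocyte barcodes measure the background of endothelial ones was not tested. Depth moves with the choice itself, since a deeper barcode passes a fixed UMI limit more easily, and its part in the later comparisons of classes was not tested.

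**Figure D2:**
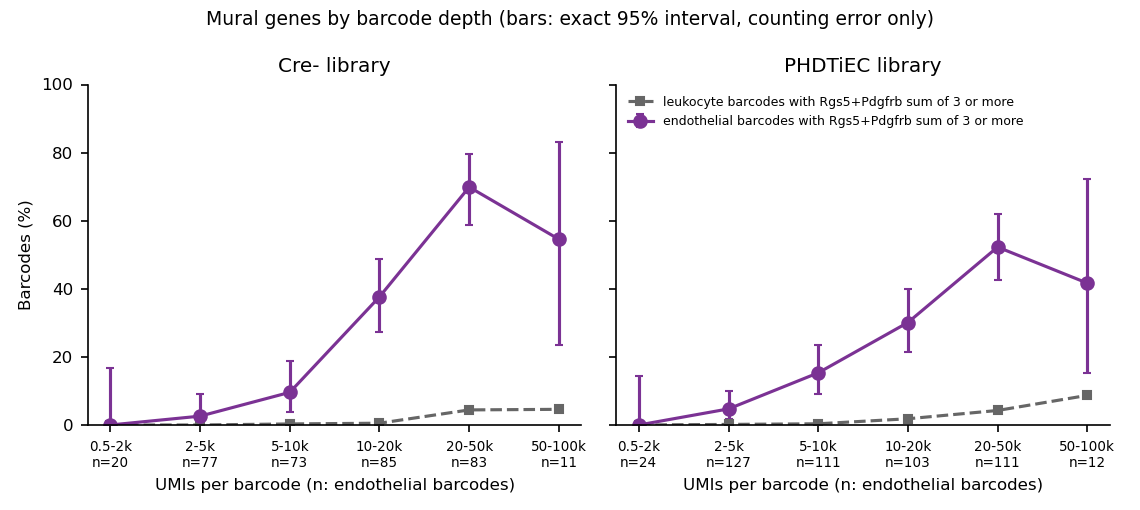
Percent of endothelial barcodes (purple circles, with exact 95% intervals) and of leukocyte barcodes (grey squares) that had at least 3 UMIs of Rgs5 and Pdgfrb, by UMIs per barcode (x axis, where k stands for 1000), for each library. From 20000 to 50000 UMIs the endothelial share was 69.9% in Cre- and 52.3% in the library labelled PHDTiEC, while the leukocyte share was 4.43% and 4.26%.

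The tubule and immune cell types listed here had the mural sum on a smaller share of their barcodes than endothelium did, whereas fibroblasts in the library labelled PHDTiEC had it on a larger share. With leukocyte genes allowed, 30.0% (25.7 to 34.6) and 23.5% (20.1 to 27.2) of barcodes with 3 UMIs of the endothelial sum had the mural sum. The share was 6.13% and 5.07% for proximal tubule barcodes, 5.62% and 4.73% for the thick ascending limb, 2.59% and 3.70% for the collecting duct, 2.25% and 2.14% for macrophages and 1.14% and 0.719% for neutrophils. Fibroblast barcodes had it on 30.7% (25.5 to 36.2) and 46.4% (42.1 to 50.8), so in Cre- their interval overlapped that of endothelium, and fibroblasts can themselves express Pdgfrb. At 5 UMIs of each sum the fibroblast share was below the endothelial one in Cre-, at 20.7% (15.8 to 26.4) against 32.3% (27.5 to 37.4), and 29.8% against 24.8% in the library labelled PHDTiEC, with overlapping intervals. Podocytes, which sit on the glomerular capillary, had the mural sum on 13 of 34 (38.2%, 22.2 to 56.4) and 6 of 55 (10.9%) barcodes and the endothelial sum on 19 of 34 (55.9%) and 24 of 55 (43.6%). Depth differed between these types, with medians from 2030 UMIs for neutrophils to 36193.5 for intercalated cells in Cre-.

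A further lineage was present on many of the endothelial-mural barcodes themselves. At least 3 UMIs of the genes of some other cell type were found on 35 of 105 (33.3%) and 33 of 117 (28.2%) of them. Endothelial-only barcodes of at least 10000 UMIs had such genes on 40.0% and 29.9%, and mural-only barcodes, where fibroblast genes are frequent, on 51.7% and 63.7%. Genes of the thick ascending limb led, on 22 and 17 endothelial-mural barcodes, followed in Cre- by those of macrophages on 11 and of the proximal tubule on 10. No doublets were removed, and 2 cells on 1 barcode and 1 cell with both sets of genes cannot be told apart from these counts.

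Across all genes, few levels on endothelial-mural barcodes lay more than 2-fold outside the range of the 2 references. Levels are UMIs summed over the barcodes of a class and divided by the class total (CPM, scaled to 1000000 UMIs per class). Of 10897 genes with at least 50 UMIs over the 3 classes in each library, 29.1% lay between the 2 references in both libraries and 96.9% lay within a factor of 2 of their range. Only 24 genes (0.22%) were more than 2-fold above both references in both libraries, and 25 (0.229%) under 50% of both. The mural-only barcodes include fibroblasts, so the count was repeated against the 150 and 134 mural-only barcodes with at least 3 UMIs of Rgs5 and fewer than 3 of Col1a1 and Dcn, a reference chosen after the data had been seen (called strict mural-only below). Then 98.0% of 9946 genes lay within 2-fold of the range, with 8 above and 8 below.

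Of the 10 named genes above both references, only Tmem100 was also more than 2-fold above strict mural-only barcodes in both libraries. Notch3, the Notch receptor of arterial smooth muscle and pericytes, had 179 CPM in Cre- against 6.81 on endothelial-only and 49.2 on mural-only barcodes, and 177 against 3.15 and 55.7 in the library labelled PHDTiEC. On strict mural-only barcodes it had 86.0 and 120 CPM, which is nearer but still lower. Hey2, a target of Notch signalling, had 45.5 and 57.2 CPM against 35.5 and 53.5 on strict mural-only barcodes, so its excess was small there. Tmem100, an endothelial membrane protein gene downstream of ALK1 signalling, had 58.5 and 51.5 CPM against 14.1 and 6.59 on endothelial-only and 7.21 and 8.32 on strict mural-only barcodes. Cox4i2, the hypoxia-responsive isoform of a cytochrome c oxidase subunit and a pericyte gene, had 66.5 and 65.6 CPM against 43.3 and 42.8 on strict mural-only barcodes. The other named genes above both were Ptp4a3, a phosphatase, Hopx, Atp1b2, a subunit of the sodium pump, Olfr558, an olfactory receptor gene, Map3k20, a stress kinase, and Nrip2. Olfr558 had no UMI on endothelial-only barcodes of either library, and 69.0 and 91.9 CPM on endothelial-mural barcodes against 66.4 and 82.6 on strict mural-only ones. Hopx had 69.4 and 95.3 CPM against 63.3 and 87.3 there, and Map3k20 148 and 148 against 109 and 142. For these genes most of the excess over the mural-only level was thus not present against the strict reference.

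Genes below both references included Tmsb10, an actin-binding peptide, with 430 and 438 CPM against 647 and 728 on endothelial-only and 1363 and 1562 on mural-only barcodes. Apoe, a lipid carrier of macrophages among other cells, had 332 and 310 CPM against 454 and 655 on endothelial-only and 858 and 672 on mural-only ones. AY036118, which overlaps ribosomal RNA sequence, had 139 and 94.1 CPM against 659 and 331 on endothelial-only barcodes. Marcks, Pycard, Lamb1, Fuca1 and Odc1 were also below both. For Marcks the strict mural-only level (164 and 113 CPM) was below that of the endothelial-mural barcodes (190 and 152 CPM), so against that reference it lay between.

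Endothelial genes were present at most of their usual level. Over the 20 genes of the endothelial list the median level was 64.2% of that on endothelial-only barcodes in Cre- and 72.2% in the library labelled PHDTiEC, and all 20 were above their mural-only level. Nos3, the endothelial nitric oxide synthase, had 121 CPM against 129 on endothelial-only barcodes in Cre- and 176 against 109 in the library labelled PHDTiEC. Kdr, the main VEGF receptor, had 138 against 306 and 110 against 342. Flt1, the decoy VEGF receptor, had 412 against 701 and 885 against 1311. Nos3 was thus near or above the endothelial-only level, while Kdr was below it in both libraries.

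Arterial genes were near the endothelial-only level, while several genes of fenestrated capillaries were far below it. The arterial list of 8 genes had a median of 92.3% and 132% of the endothelial-only level. Sox17, a transcription factor of arterial endothelium, had 646 CPM against 692 in Cre- and 455 against 554 in the library labelled PHDTiEC. Gja4, the arterial gap junction protein connexin 37, had 271 against 240 and 226 against 187. Plvap, which forms the diaphragms of fenestrated capillaries, had 156 against 699 CPM and 119 against 620, and Gpihbp1, the capillary anchor of lipoprotein lipase, had 79.1 against 272 and 35.8 against 257. Aplnr, the apelin receptor, was close to absent, with 0.722 against 74.0 CPM and 1.91 against 34.4. The fenestrated capillary list of 6 genes as a whole had a median of 58.0% and 44.5%. Its members Igfbp3 (569 against 616 CPM and 896 against 1049), Igfbp5 (402 against 461 and 409 against 584) and Nrp1 (211 against 242 and 215 against 280) did not share the low level of Plvap, Gpihbp1 and Aplnr. The glomerular endothelial list, also of capillaries, had medians of 93.1% and 137%, about those of the arterial list. Its genes differed, with 2 of 5 measured genes above the endothelial-only level in Cre- and 4 of 6 in the library labelled PHDTiEC. Ehd3 had 34.0 against 79.3 CPM and 29.7 against 116, while Tbx3 had 77.3 against 58.4 and 77.4 against 61.3. The lists thus gave no uniform order of arteries over capillaries.

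Mural genes included those of smooth muscle, pericytes and renin cells, while fibroblast genes were far below their mural-only level. Acta2, smooth muscle actin, had 2111 CPM on endothelial-mural barcodes, 16.1 on endothelial-only and 2771 on mural-only ones in Cre-, and 3191, 12.6 and 3047 in the library labelled PHDTiEC. Myh11, the smooth muscle myosin heavy chain, had 508, 3.41 and 380 CPM, and 728, 2.87 and 489. At least 3 UMIs of Myh11 were found on 83 of 105 (79.0%) and 95 of 117 (81.2%) barcodes, of Acta2 on 93 and 107, and of Tagln, another actin-binding smooth muscle gene, on 96 and 105. Over the 17 contractile genes the median was 95.04% and 105% of the mural-only level, and 55.7% and 59.2% of that on strict mural-only barcodes, where fibroblasts do not dilute it. The endothelial-only barcodes were chosen to lack Rgs5 and Pdgfrb, so their low mural levels follow in part from the choice.

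Ren1, which encodes renin, had 361 CPM on endothelial-mural barcodes and 394 on mural-only ones in Cre-, and 442 and 230 in the library labelled PHDTiEC, with 1.95 and 1.15 on endothelial-only barcodes. On strict mural-only barcodes Ren1 had 793 and 674 CPM, so the endothelial-mural level was below that reference in both libraries. Ren1 reached 3 UMIs on 29 (27.6%) and 24 (20.5%) endothelial-mural barcodes, with 15.8% and 19.8% of its UMIs on 1 barcode. Akr1b7, an aldo-keto reductase of renin cells, did so on 39 and 32. It had 113 and 100 CPM against 171 and 117 on strict mural-only barcodes. The pericyte proteoglycan gene Cspg4 (NG2) had 64.7 and 64.8 CPM against 94.0 and 107 on mural-only barcodes. The 17 pericyte genes together had a median of 270% and 109% of the mural-only level, and of 154% and 118% of the strict one. Higd1b, a pericyte gene, had 34.0 and 19.8 CPM against 3.46 and 1.45 on mural-only barcodes, and Agtr1a, the angiotensin receptor, 49.9 and 34.7 against 15.5 and 22.3. By contrast, Col1a1, the fibrillar collagen of fibroblasts, had 17.0 and 71.3 CPM against 1259 and 1946 on mural-only barcodes, with 32.1% of its UMIs on 1 barcode in the library labelled PHDTiEC. The 10 fibroblast genes had medians of 3.80% and 7.51% of the mural-only level. Against the other references the order was the opposite: the medians were 382% and 408% of the strict mural-only level, a reference chosen to lack Col1a1 and Dcn, and 1314% and 1609% of the endothelial-only level, over the 6 and 7 genes with at least 10 UMIs. Col1a2, a fibrillar collagen, had 103 and 133 CPM against 23.7 and 33.9 on strict mural-only and 5.35 and 10.6 on endothelial-only barcodes, and it was seen on 59 and 55 endothelial-mural barcodes, with 29.7% of its UMIs in the library labelled PHDTiEC on 1 barcode.

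**Figure D3:**
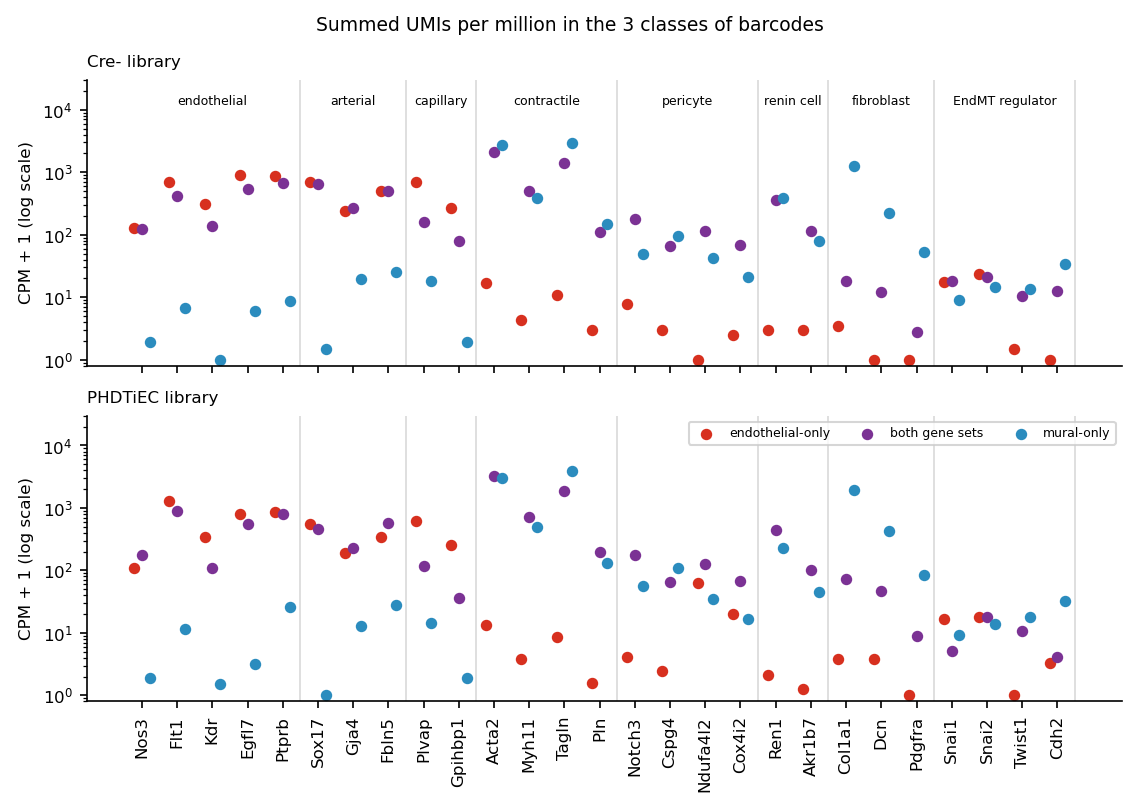
CPM plus 1 (y axis, log scale) for genes of 8 groups on endothelial-only (red), endothelial-mural (both gene sets, purple) and mural-only (blue) barcodes, with the Cre- library above and the library labelled PHDTiEC below. Purple points lie near red for Nos3, Sox17 and Gja4, near blue for Acta2, Myh11 and Ren1, and far below blue for Col1a1 and Dcn.

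Genes that regulate EndMT differed in how their levels were ordered among the classes. Snai1 had 17.3 CPM on endothelial-mural barcodes, 16.5 on endothelial-only and 8.08 on mural-only ones in Cre-, and 4.19, 15.5 and 8.35 in the library labelled PHDTiEC. Snai2 had 20.2, 22.4 and 13.9 CPM, and 16.8, 17.2 and 12.9. Twist1 had 9.39 and 9.91 CPM, seen on 21 and 20 barcodes, against 12.7 and 17.2 on mural-only barcodes and 0.487 and 0 on endothelial-only ones (1 UMI in Cre- and none in the library labelled PHDTiEC). Cdh2, the mesenchymal N-cadherin, had 11.6 and 3.05 CPM against 33.0 and 32.0 on mural-only and 0 and 2.29 on endothelial-only barcodes. Zeb2, a repressor of E-cadherin, had 175 and 165 CPM, between 81.7 and 86.5 on endothelial-only and 204 and 291 on mural-only barcodes. Twist1 and Zeb2 were thus above the endothelial-only level and below the mural-only one in both libraries. Against strict mural-only barcodes this order did not hold. There Twist1 had 9.78 and 10.1 CPM, about level with the endothelial-mural barcodes, and Zeb2 had 129 and 137, below them. Snai1 reached 3 UMIs on 8 of 105 barcodes in Cre- and on 0 of 117 in the library labelled PHDTiEC, which allows a share of up to 2.56%. Over the 12 regulators the median was 90.4% and 105% of the endothelial-only level and 128% and 89.3% of the mural-only level. The levels of Snai2 and Zeb1, with 99.3 and 129 CPM against 120 and 126 on endothelial-only barcodes, were thus close to those of endothelium without mural genes.

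Most endothelial-mural barcodes carried Myh11, among them most of those with Sox17 or Plvap. Of those with 3 UMIs of Sox17, 72 of 88 (81.8%, 72.2 to 89.2) in Cre- and 78 of 93 (83.9%, 74.8 to 90.7) in the library labelled PHDTiEC had 3 UMIs of Myh11, about the share over all of them given above. With Plvap the counts were 35 of 44 (79.5%) and 21 of 33 (63.6%), against 33 of 39 (84.6%) and 44 of 53 (83.0%) with no UMI of Plvap. The median depth with and without Plvap was 27869 and 19226 UMIs in Cre- and 30396 and 13743 in the library labelled PHDTiEC. Counts were small with Gja5 (3 of 6 in Cre- and 6 of 8 in the library labelled PHDTiEC) and with Slc14a1 (7 of 11 and 2 of 3). Aqp1, a water channel of descending vasa recta and arteriolar endothelium, went with Ren1 on 14 of 33 (42.4%, 25.5 to 60.8) and 11 of 28 (39.3%, 21.5 to 59.4) barcodes, against 9 of 57 (15.8%) and 9 of 67 (13.4%) with no UMI of Aqp1. It went likewise with Cspg4, on 48.5% against 19.3% and 28.6% against 16.4%, and with Notch3, on 28 of 33 (84.8%) against 32 of 57 (56.1%) and 21 of 28 against 32 of 67 (47.8%), so the relation was not particular to Ren1. The median depth of the barcodes with and without Aqp1 was 24875 and 22217 UMIs in Cre- and 23853.5 and 19152 in the library labelled PHDTiEC. Aqp1 is also a gene of the proximal tubule, whose genes were present on 10 and 7 endothelial-mural barcodes.

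The floxed genes check the labels, as far as counts per gene can. In endothelial-mural barcodes Egln1 had 67.9 CPM in Cre- and 169 in the library labelled PHDTiEC, a log2 ratio of 1.31 (1.06 to 1.57), Egln2 had 29.6 and 35.8 (0.27, -0.17 to 0.72), and Egln3 had 18.8 and 125 (2.73, 2.30 to 3.18). None of the floxed genes was lower in the library labelled PHDTiEC on these barcodes, and 3′ counts of a gene hold transcripts with and without the floxed exon alike. Endothelial-only barcodes had 74.4 and 176 CPM of Egln1 and 27.2 and 132 of Egln3. Egln2 had 45.7 and 39.8 CPM there (-0.20, -0.59 to 0.19) and 40.2 and 33.4 on mural-only barcodes (-0.27, -0.57 to 0.04). Mural-only barcodes had 60.1 and 59.9 of Egln1 and 4.16 and 4.54 of Egln3, about level between the libraries.

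HIF target genes were higher in the library labelled PHDTiEC on endothelial-mural barcodes, as on endothelial-only ones, and not on mural-only ones. The study reported a hypoxia gene set as enriched in medullary endothelial cells of these libraries and named Vegfa there, so this direction is not independent evidence. The median log2 ratio over the HIF target genes was 0.93 on endothelial-mural barcodes, with 20 of 23 measured genes above 0, against -0.02 over all 12745 genes measured, of which 47.7% were above 0. Of the 21 with at least 50 UMIs, 9 were at least 2-fold higher, where 1.13% of all 9362 genes (106) were that much higher and 0.865% (81) that much lower. The same list gave 1.43 on endothelial-only barcodes (23 of 23 above 0, 12 of 21 at least 2-fold higher, where 1.95% of genes were higher and 0.568% lower). On mural-only barcodes it gave -0.05 (10 of 22 above 0 and none of 20 at least 2-fold higher, with 1.09% of genes higher and 1.05% lower).

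Adm, the vasodilator peptide adrenomedullin, had 7.59 CPM in Cre- and 57.2 in the library labelled PHDTiEC (log2 ratio 2.91, 2.25 to 3.65). Ankrd37, whose promoter held 4 matches, had 10.8 and 78.9 (2.86, 2.31 to 3.47), and Bnip3 had 42.3 and 178 (2.07, 1.78 to 2.38). Vegfa, the endothelial growth factor, had 32.5 and 90.3 (1.47), and Higd1a, a mitochondrial respiratory factor, 126 and 324 (1.36). On mural-only barcodes Ankrd37 had 3.46 and 2.54 CPM and Bnip3 40.2 and 40.5. Ankrd37 reached 3 UMIs on 2 of 105 and 29 of 117 endothelial-mural barcodes, and Bnip3 on 13 and 56.

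Other HIF-related genes were about level on endothelial-mural barcodes. Pgf, placental growth factor, had 27.1 and 28.2 CPM on endothelial-mural barcodes (log2 ratio 0.06, -0.43 to 0.54), but 7.30 and 67.3 on endothelial-only ones (3.21, 2.45 to 4.07). Ndufa4l2, a HIF-induced mitochondrial gene also typical of pericytes, had 115 and 126 CPM on endothelial-mural barcodes (0.13, -0.10 to 0.36). On endothelial-only barcodes it had no UMI in Cre- and 62.8 CPM in the library labelled PHDTiEC, at least 5.43 higher on the log2 scale against a floor of 3 UMIs in the class. Cox4i2 had 66.5 and 65.6 CPM on endothelial-mural barcodes (-0.02), and 3 and 66 UMIs on endothelial-only ones (3.70, 2.09 to 6.01). Ndufa4l2 and Cox4i2 thus differed on endothelial-only barcodes and were about level on those with mural genes, where the mural-only levels of Ndufa4l2 were 41.6 and 34.1 CPM.

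**Figure D4:**
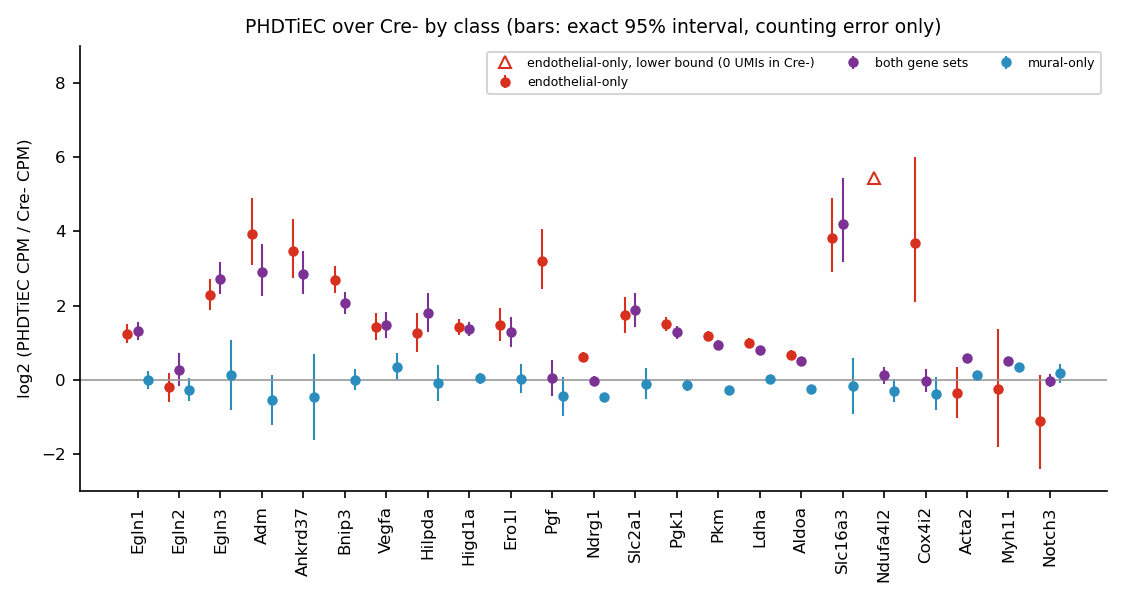
Log2 ratio of the library labelled PHDTiEC over Cre- (y axis) with exact 95% counting intervals for floxed, HIF target, glycolysis and mural genes on endothelial-only (red), endothelial-mural (both gene sets, purple) and mural-only (blue) barcodes. Purple follows red for Egln3, Adm, Bnip3 and Slc16a3, and lies near 0 for Pgf, Ndufa4l2, Cox4i2 and Notch3, while the open triangle is a lower bound.

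Genes of glycolysis were higher as well. The study chose a list of 10 glycolysis genes on these libraries, so its direction is not independent evidence. All 10 were above 0 on endothelial-mural barcodes, with a median log2 ratio of 0.88 and 4 of them at least 2-fold higher (47.7% and 1.13% over all genes). The medians were 1.33 on endothelial-only barcodes (7 of 10 at least 2-fold higher, against 1.95% of all genes) and -0.21 on mural-only ones. Slc16a3 had 2.89 and 53.0 CPM, from 8 and 139 UMIs (4.20, 3.18 to 5.44), and reached 3 UMIs on 0 of 105, which allows a share of up to 2.86%, and 19 of 117 barcodes. Slc2a1, the glucose transporter GLUT1, had 19.1 and 70.5 CPM (1.88), and Pgk1, phosphoglycerate kinase, 134 and 325 (1.28). The 11 further glycolysis genes, which the study did not name for these cells, had a median of 0.44, with 8 of 11 above 0 and 1 of 8 at least 2-fold higher, against the same shares over all genes.

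The summed HIF target and glycolysis genes also spread within the library. Per barcode they had a median of 4147 CPM (quartiles 3548 and 4906) in Cre- and 5365 (3907 and 8485) on endothelial-mural barcodes of the library labelled PHDTiEC. On endothelial-only barcodes the medians were 3371 and 4113 with upper quartiles of 4128 and 8382, and on mural-only ones the medians were 4628 and 4142. In Cre- the sum was 3796 CPM on the 47 barcodes with a mural share of the panels under 50% and 4514 on the other 58, while in the library labelled PHDTiEC it was 7254 on 38 and 5228 on 79. The order of these groups was thus opposite in the libraries, and the Spearman correlation of the sum with the mural share was 0.29 over 105 barcodes and -0.23 over 117. The barcodes of a library share 1 kidney and the depth of the library, and these correlations are weak and given as a description.

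**Figure D5:**
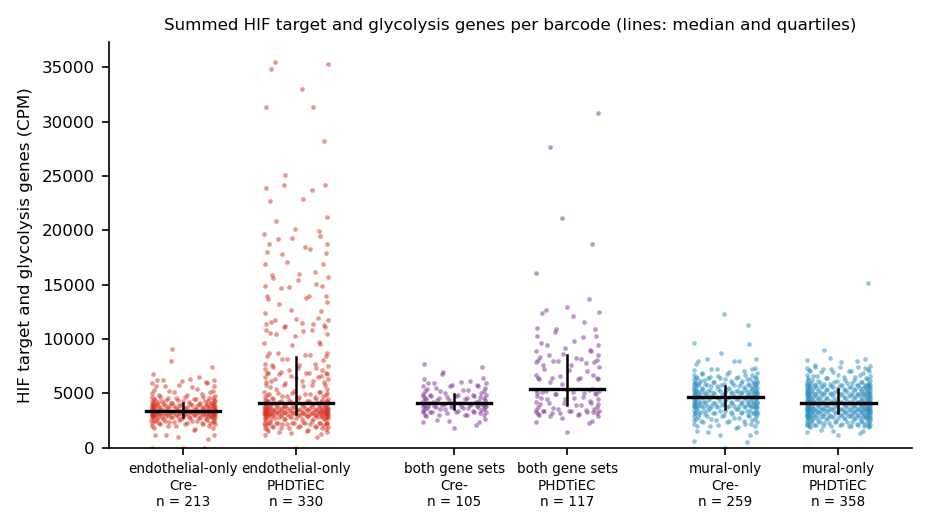
Summed CPM of HIF target and glycolysis genes (y axis) for each barcode of the 3 classes in each library, with black lines at the median and quartiles. The upper quartile is at 4128 and 8382 on endothelial-only barcodes and at 4906 and 8485 on endothelial-mural ones for Cre- and PHDTiEC, and the medians on mural-only barcodes are 4628 and 4142.

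Contractile genes were a little higher in the library labelled PHDTiEC. Over the 17 contractile genes the median log2 ratio was 0.48 on endothelial-mural barcodes, with 16 above 0 (47.7% over all genes), Des, the intermediate filament desmin, below it (-0.77), and none of the 15 with at least 50 UMIs reaching 2-fold. Acta2 had a ratio of 0.60 (0.55 to 0.64) and Myh11 one of 0.52 (0.42 to 0.62). On mural-only barcodes the list had 0.33. The pericyte list had a median of -0.05, and Notch3 was level at 179 and 177 CPM. The study's own list of mesenchymal genes, which it also chose on these libraries, had 0.49 with 10 of 10 above 0. On mural-only barcodes it had 0.28, also with 10 of 10 above 0 (49.6% over all genes). On endothelial-only ones it had -0.14 with 4 of 10 above 0 (53.7% over all genes). The mural share of the panels, given above, was larger in the library labelled PHDTiEC.

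Among genes of signalling between endothelium and mural cells, 14 of 16 were above 0 and 2 of the 15 with at least 50 UMIs at least 2-fold higher, with a median of 0.19, where 47.7% of all genes were above 0 and 1.13% 2-fold higher. The same list had a median of 0.13 on endothelial-only barcodes (8 of 15 above 0, 53.7% over all genes). On mural-only ones it had 0.33 (12 of 16, 49.6% over all genes). Cxcl12, a HIF-responsive chemokine, had 50.9 CPM in Cre- and 192 in the library labelled PHDTiEC (1.92, 1.65 to 2.20), with 19.2% of its UMIs there on 1 barcode. Cxcl12 was also higher on endothelial-only (0.82, 0.57 to 1.08) and mural-only barcodes (0.87, 0.49 to 1.25). S1pr1, the sphingosine 1-phosphate receptor of endothelium, had 169 and 341 (1.02), and S1pr3, that of mural cells, 65.0 and 114 (0.81). Pdgfb, the endothelial ligand of the Pdgfrb receptor, had 146 and 144 (-0.02), and Jag1, a Notch ligand, 204 and 237 (0.22). In the adhesion and chemokine list 1 of 8 measured genes was above 0, namely Mif with 241 and 451 CPM (0.90), while Icam1 had 91.8 and 72.8 (-0.33). The study had already named Cxcl12, S1pr1, Mif and Icam1 as higher in medullary endothelial cells of these libraries. The direction of Cxcl12 and S1pr1, the 2 genes at least 2-fold higher, and of Mif is therefore not independent evidence. Ccl2, a monocyte chemokine, had 58.2 and 8.38 CPM (-2.79), but from only 7 and 9 barcodes, with 31.1% of its UMIs in Cre- on 1 barcode, and on endothelial-only barcodes its direction was the opposite, with 5.84 and 45.9 CPM (2.97).

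By size alone, the 10 genes with the highest ratio were Slc16a3, AA467197 (3.14), Adm, Ankrd37, Egln3, Depp1 (2.30), Bnip3, Cxcl12, Slc2a1 and Phactr1 (1.85). Depp1 had 57.1 and 281 CPM on endothelial-mural barcodes, 67.1 and 271 on endothelial-only and 10.2 and 1.09 on mural-only ones, the last in the opposite direction. The 10 with the lowest ratio were Esm1, a proteoglycan gene of sprouting endothelium, with 30.7 and 5.72 CPM (-2.43), Csf2rb2 (-2.26), Slc14a1 (-2.04), Aoc1 (-1.92), Ptn (-1.79), Pigr (-1.48), Lrg1 (-1.43), Npr3 (-1.42), Pax8 (-1.33) and Csf2rb (-1.28). Esm1 had 133 and 122 CPM on endothelial-only barcodes and Slc14a1, the urea transporter of descending vasa recta, 14.1 and 23.2. These 10 genes were seen on 14 (Slc14a1) to 53 (Lrg1) barcodes in Cre- and on 8 (Slc14a1) to 27 (Lrg1) in the library labelled PHDTiEC, with 23.1% of the Slc14a1 UMIs of Cre- on 1 barcode.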

How the data were processed

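RNA of single-cell suspensions was counted with the 10X Genomics Chromium 3′ kit (version 3.1). The authors aligned reads to mm10 with Cell Ranger (version 4) and deposited the raw UMI counts as an unfiltered matrix, with no normalization; the gene and barcode lists carry no values. The totals were 136004367 UMIs (Cre-) and 146758812 (PHDTiEC), and the kept barcodes had medians of 7414.5 and 7815 UMIs. The filters of the study's methods were applied: 500 to 100000 UMIs, at least 200 genes, at most 50% mitochondrial UMIs and log10 genes over log10 UMIs no lower than 0.8. The study states fewer cells than these filters left, and it also removed a cluster rich in Gm26917 and Gm42418, which was not done here; the reason for the gap was not tested. No doublet caller was run, since droplets with 2 cells are among those the choice can take; limits on depth and on other lineages were tried as alternatives.

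The members, gene lists and references were chosen with earlier results of these data known. UMI counts were summed over barcodes per class and library and divided by the class total (CPM). Lists were read over genes with at least 10 UMIs in both libraries together, and genes called 2-fold different over those with at least 50. Shares and ratios have Clopper-Pearson intervals (scipy 1.17.1, numpy 2.4.6, Python 3.11.15). The study's test, which treats cells as replicates, was not used. The code was tested on simulated data. Beside the listed genes, the text names the 10 genes highest and the 10 lowest in ratio among those with at least 100 UMIs, at least 10 barcodes with a UMI and at most 25% of UMIs in 1 barcode, without mitochondrial, ribosomal protein, haemoglobin and predicted genes and Xist. Against the references, the 10 furthest above and the 10 furthest below the nearer one with at least 100 UMIs in each library are named, apart from a few that are not reported here. Alternatives were TMM scaling (edgeR 4.0.16, R 4.3.3), the mean over barcodes, removal of an ambient profile taken from barcodes with fewer than 100 UMIs, other filters on barcodes, stricter sums and other count minimums. Genes with a close copy (Eno1 and Eno1b, Csf2rb and Csf2rb2) are uncertain. Gene identifiers matched GENCODE vM21 for 32158 of 32285, and promoters were matched by symbol for 4 of 6 genes.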

Additional observations from a re-analysis of the deposited data

Results flagged for a closer look

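Of the 24 gene lists, those with enough counts in each class were searched for median ratios of opposite sign on endothelial-mural and endothelial-only barcodes. The lists named here passed that search, so their opposite direction is the rule of choice and not a result. The descending vasa recta list (6 genes) had a median log2 ratio of PHDTiEC over Cre- of -0.69 on endothelial-mural barcodes and 0.27 on endothelial-only ones. Aqp1 had 446 and 209 CPM on endothelial-mural barcodes (-1.09) against 336 and 469 on endothelial-only ones (0.48), Slc14a1 had -2.04 against 0.72, and Fxyd6, a regulator of the sodium pump, -0.70 against 0.31. In the library labelled PHDTiEC, 1 barcode held 42.4% of the Aqp1 UMIs of endothelial-mural barcodes. Another held 23.3% of those of endothelial-only barcodes. Slc14a1 was seen there on only 8 endothelial-mural barcodes, with 37.8% of its UMIs on 1 of them. The distal tubule list had a median of 0.62 on endothelial-mural and -0.25 on endothelial-only barcodes, led by Slc12a1, the salt transporter of the thick ascending limb, with 112 and 256 CPM against 318 and 119. Of the Slc12a1 UMIs on endothelial-mural barcodes of the library labelled PHDTiEC, 31.2% were on 1 barcode. With 1 library per genotype these differences between classes were not tested.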

How the results depend on the processing

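No paired analysis was possible because each genotype has 1 library, and no library could be left out. Of 133 alternative values 94 stayed within the interval or within 1.5 times of the reported count and 39 moved, with no reversal of sign. The share of endothelial barcodes with mural genes was 23.2% in Cre- and 16.4% in PHDTiEC when both mural genes and 2 endothelial genes were required, and, when only these barcodes and not the endothelial barcodes they are a share of were limited, 20.1% and 17.2% without other lineages and 11.7% and 11.1% with at most 20000 UMIs, which by construction also brought the median depth to 14758 and 12793 UMIs. With all endothelial barcodes under the same limit, a setting chosen after the data had been seen, it was 70 of 268 (26.1%) and 84 of 396 (21.2%) without other lineages, and 41 of 255 (16.1%) and 54 of 365 (14.8%) with at most 20000 UMIs. Of all kept barcodes it was 1.24% and 1.27%. Genes above both references numbered 8 with at least 5 UMIs of each sum, 47 without other lineages, 96 with at most 20000 UMIs and 8 against strict mural-only barcodes. Those below numbered 61 with both genes required, 480, 438 and 8 in the latter 3 settings and 72 with no count minimum. The removal of barcodes with other lineages leaves those lineages in the references. Genes at least 2-fold higher in PHDTiEC numbered 59 with at most 20000 UMIs, 241 with the ambient profile subtracted, 911 with no count minimum and 34 with at least 200 UMIs, and genes 2-fold lower 32, 690, 851 and 15, or 136 by the mean over barcodes. The HIF target median was 0.50 with both genes required and 1.48 with ambient subtraction. The glycolysis median of the study's list was 1.22 without other lineages, 0.77 with at most 20000 UMIs and 1.55 with ambient subtraction, which also gave 1.16 for further glycolysis genes and 1.85 for the floxed genes. That subtraction, scaled so that the summed tubule genes are removed in full, took out 46.7% of the UMIs in Cre- and 67.7% in PHDTiEC. Macrophage barcodes with the mural sum fell to 1.48% and 1.26% with 5 UMIs of each sum. Beyond what each setting leaves out by construction, the cause was not tested. The strict reference and a minimum of 10000 UMIs were chosen after the data had been seen.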

Other observations

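Several lists not described above gave values on endothelial-mural barcodes with little difference between the libraries. The immediate early and heat shock genes, which respond to dissociation, had a median log2 ratio of PHDTiEC over Cre- of -0.24. Of them 1 of 10 was above 0, where 47.7% of all genes were, so most were lower in PHDTiEC, by a small amount. The medians were -0.08 on endothelial-only and -0.09 on mural-only barcodes, with 3 of 10 above 0 in each (53.7% and 49.6% over all genes). Fos had 4869 and 4651 CPM against 3556 and 4194 on endothelial-only barcodes. The glomerular endothelial list had 0.18, and Pi16, one of its genes, had 307 and 349 CPM against 330 and 212 on endothelial-only barcodes. Podxl, which endothelium shares with podocytes, had 411 and 425 CPM against 504 and 468 on endothelial-only barcodes. The venous gene Nr2f2, which mural cells also express, had 286 and 236 CPM, between 103 and 88.3 on endothelial-only and 357 and 426 on mural-only barcodes. Ackr1 and Ccl21a, genes of venules and lymphatics, had no UMI on endothelial-mural barcodes.

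The proximal tubule gene Kap had 160 CPM in Cre- and 1.14 in PHDTiEC on endothelial-mural barcodes, and 97.7% of the Cre- UMIs were on 1 barcode. The T cell gene Trbc2 had 1 UMI in Cre- and 10 in PHDTiEC, 40.0% of them on 1 barcode.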
